A study of Mus musculus with 6 samples.

Results

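The mitochondrial fatty acid oxidation genes described here were 10 of the 55573 genes listed for inguinal white adipose tissue (iWAT), a subcutaneous fat depot, of THRA K283Q/K288R mutant and wild-type (Wt) mice. They were chosen by symbol. *Cpt1a*, *Cpt1b*, *Cpt2* and *Slc25a20* encode the carnitine shuttle, *Acadvl*, *Acadl* and *Acadm* the acyl-CoA dehydrogenases for very long, long and medium chains, *Hadha* and *Hadhb* the subunits of the trifunctional protein, and *Etfdh* the dehydrogenase that passes the electrons on. The mutant mice were homozygous for K283Q and K288R in *Thra*, the gene of thyroid hormone receptor alpha. The change was introduced by recombinase-mediated cassette exchange in embryonic stem cells and was carried in every tissue, and it alters lysines of the receptor that take up the small modifier SUMO. Wt mice had the same C57BL/6NTac background and none of these changes. All mice were male, 3 months old, fed regular chow and untreated. RNA-seq was performed on total RNA of 3 mutant and 3 Wt mice with 1 library per mouse. The question put to these genes was whether their transcript levels differed between the genotypes.

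Long-chain fatty acids cannot cross the inner mitochondrial membrane as CoA esters. CPT1 on the outer membrane transfers the acyl group to carnitine, the carrier encoded by *Slc25a20* moves acylcarnitine inward, and CPT2 restores the CoA ester, which the acyl-CoA dehydrogenases and the trifunctional protein then shorten in repeated rounds. CPT1 is the step inhibited by malonyl-CoA and controls the rate of entry. *Cpt1a* is the liver isoform and is also used by white fat, *Cpt1b* is the isoform of muscle and brown fat, and *Cpt1a* is a classical thyroid hormone target in liver.

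Of the 10 genes, only *Cpt1a* passed the test, and it fell in mutant mice. The other 9 did not pass, and the lowest adjusted p among them was 0.339 (limma, *Cpt2*). In the authors' own analysis of the RNA-seq they deposited, which is used here, *Cpt1a* did not differ significantly (FDR above 0.05, 3 mice per genotype). Values are normalized CPM, reads scaled to the size of the library with a further factor for each mouse from the authors, and are listed in the order of mice 1, 2 and 3. Genotypes were compared with limma on log2(value + 0.5), with p-values adjusted over the 16868 genes tested and an FDR threshold of 0.05. In that test 8.11% of all genes were called, 2.61% lower and 5.5% higher in mutant mice, so that 1 call among 10 genes was close to the share of all genes. The share was smaller under stricter filters. Without genes opposite an abundant gene on the other strand, 344 of 15676 were called, with all 10 members tested and *Cpt1a* called. The median log2 difference of the 10 genes was -0.022, beside -0.049 for all genes tested. The estimate was higher in mutant mice for 5 members and lower for 5. *Cpt1a* was also the only member whose genotypes did not overlap. Among all genes tested, every mutant mouse lay below every Wt mouse for 15.7% and above for 14.9%, 30.6% in all. An unadjusted p under 0.05 was found for 1 member and for 24.2% of all genes. A fit with the mouse number as a block called 24.1% of all genes and 2 members, *Cpt1a* and *Cpt2*. For single values an exact permutation test, two-sided, was used, whose smallest p with 3 mice per genotype is 0.1.

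The libraries held 19607423 to 24228381 reads on genes, with scaling factors of 0.962 to 1.109, and 3 reads corresponded to 0.126 to 0.157 normalized CPM. The 7 white adipocyte markers summed to 15035 to 21416 in Wt and 12353 to 19343 in mutant mice, with none at 0. Without the block none was called by limma (1 unadjusted p under 0.05), and DESeq2 called 1, *Lep*. The estimate was higher in mutant mice for 1 of them, *Lep* (log2 difference 0.67), and lower for 6. With the block limma called 3, of which 1 was higher and 2 lower, where 24.1% of all genes were called. Skeletal muscle markers were abundant too, at 13770 to 29499 in Wt and 21699 to 34063 in mutant mice for 10 genes, of which *Myh1* was called higher. The 4 slow muscle markers summed to 4.32 to 238 in Wt and 495 to 724 in mutant mice, with none called and 4 unadjusted p-values under 0.05. Of 8 mesothelial markers, 7 were called higher in mutant mice (4.72 to 31.6 against 37.8 to 75.9 summed), and 5 of the 8 were at 0 in at least 1 mouse. The 5 lymph node markers were low in mutant mouse 1. The 5 epithelial markers summed to 4.08 to 61.1 in Wt and 2.81 to 20.6 in mutant mice, *Epcam*, *Krt8* and *Krt18* being highest in Wt mouse 1 and *Krt5* and *Krt14* in mutant mouse 2. *Thra* itself was not called, with a log2 difference of 0.19 (adjusted p = 0.404, limma), or 0.42 with a correction for GC content (adjusted p = 0.122). In bulk tissue, fewer cells of a type and less RNA per cell cannot be told apart.

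The promoters of the members were examined because thyroid hormone receptors, PPARs and related receptors bind variants of the half-site AGGTCA. RefSeq windows of GRCm38.p6, from 250 bases before to 50 bases after the annotated start, were found for 9 of the 10 genes. Windows of *Cpt1a*, *Acadm* and *Acadvl* held AGGTCA on either strand, as did 16.2% of all 32544 windows. No window of a member held AGGTCA repeated with the spacing called DR1 (0.0399% of all windows) or that called DR4 (0.0154%). The cAMP response element TGACGTCA (1.8% of all windows) was in none of the 9, and its short form TGACG (20.9%) was in those of *Acadm* and *Etfdh*. The stretches with AGGTCA are printed because *Cpt1a*, the called gene, shared these letters with *Acadm* and *Acadvl*, which were not called. Capitals mark the match, which reads TGACCT where it lies on the other strand, and each stretch lies outside annotated exons. The stretch of *Cpt1a* is chr19:3323051-3323284 on the plus strand, that of *Acadm* chr3:153944848-153944893 and that of *Acadvl* chr11:70015490-70015535, both on the minus strand. A match is a description of letters and not a binding site.
Cpt1a: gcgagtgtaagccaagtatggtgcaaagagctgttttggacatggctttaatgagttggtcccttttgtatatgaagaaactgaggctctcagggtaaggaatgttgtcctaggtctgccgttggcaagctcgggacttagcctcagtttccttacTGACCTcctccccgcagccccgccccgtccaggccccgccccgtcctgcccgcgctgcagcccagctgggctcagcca
Acadm: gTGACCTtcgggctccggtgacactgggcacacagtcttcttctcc
Acadvl: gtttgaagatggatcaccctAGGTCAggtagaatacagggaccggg

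*Cpt1a* (ENSMUSG00000024900, GRCm38 chr19:3322334-3385733, plus strand) catalyses the entry step. It stood at 86.4, 86.3 and 90.1 normalized CPM in the Wt mice and at 54.5, 65.1 and 52.2 in mutant mice. Each mutant mouse lay below each Wt mouse, and the Wt mice lay close together. The mean was 57.3 ± 6.86 (SD, n = 3) in mutant and 87.6 ± 2.18 (SD, n = 3) in Wt mice, a ratio of 0.654. The log2 difference of -0.62 (standard error 0.10, 95% interval -0.86 to -0.38) passed the threshold with an adjusted p of 0.0159 (limma). The exact permutation p was 0.1, the smallest possible. The values rested on 1040 to 2142 reads in each mouse. With 1 mouse left out, the difference stayed between -0.71 and -0.55, but the call was lost without Wt mouse 1 (adjusted p = 0.0504, limma), Wt mouse 2 (0.0727), Wt mouse 3 (0.0702) or mutant mouse 3 (0.0524). It was also lost when each mouse was centred on its adipocyte markers, with a log2 difference of -0.46 (adjusted p = 0.464, limma, within a range of 7.47e-05 to 0.464 over the alternatives that kept all mice).

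*Cpt1b* (ENSMUSG00000078937, chr15:89416405-89425863, minus strand) was listed at a very low level. It was at 1.09, 1.26 and 0.926 normalized CPM in the Wt mice and at 1.73, 1.21 and 1.36 in mutant mice, from 22 to 33 reads per mouse. Mutant mouse 2 lay below Wt mouse 2, so the genotypes overlapped. Means of 1.43 ± 0.267 (SD, n = 3) in mutant and 1.09 ± 0.169 (SD, n = 3) in Wt mice gave a log2 difference of 0.28 (standard error 0.17, 95% interval -0.14 to 0.69) that did not pass the threshold (adjusted p = 0.376, limma). Of its coding transcript of 2895 bases, 2745 (94.8%) are shared with an annotated readthrough transcript, *Gm44502*, which was listed at 0 in every mouse. How reads of both were assigned is not given in the sources used here, so the level of *Cpt1b* is uncertain. Markers of the tissues that use this isoform are given beside it. The mean log2 level of the skeletal muscle markers was 10.01, 10.48 and 9.50 in Wt mice and 11.25, 10.61 and 11.23 in mutant mice. This mean was higher in every mutant mouse than in every Wt mouse (difference 1.03, exact permutation p = 0.1). Over the 10 genes the log2 difference ran from -0.12 (*Myh4*) to 4.31 (*Myh1*), with a median of 0.58. For 3 of the 10, every mutant mouse lay above every Wt mouse, as for 14.9% of all genes tested. Brown and beige fat markers summed to 148 to 197 in Wt and 97.9 to 150 in mutant mice over 8 genes, none at 0. Of the 7 tested, 1 was called by limma without the block and 6 were not, with 4 estimates lower and 3 higher in mutant mice. With the block 4 were called, all lower, where 24.1% of all genes were called. The gene called without the block was *Ucp1*, the uncoupling protein of brown fat (log2 difference -1.69, adjusted p = 0.0187, limma). The 4 lower genes, *Ucp1*, *Cidea*, *Cox8b* and *Prdm16*, each had an unadjusted p under 0.05 (limma), as did 24.2% of all genes. *Prdm16* (log2 difference -0.62, adjusted p = 0.0608, limma) was also called by DESeq2. Their part in the *Cpt1b* values was not tested.

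The isoforms were compared within each mouse, where the length of the genes cancels between genotypes. *Cpt1b* was 0.0126, 0.0147 and 0.0103 of the *Cpt1a* value in Wt mice and 0.0317, 0.0186 and 0.0260 in mutant mice. All mutant ratios lay above all Wt ratios. On the log2 scale with the pseudocount, the ratio was -4.90 ± 0.32 (SD, n = 3) in mutant and -5.79 ± 0.19 (SD, n = 3) in Wt mice. Its shift of 0.89 had an exact permutation p of 0.1, the smallest that 3 mice against 3 allow, so it could not pass a threshold of 0.05. It remained between 0.75 and 1.07 with 1 mouse left out. Per kilobase of coding transcript, with the uncertain *Cpt1b* level taken as listed, *Cpt1a* stood 53.2, 45.8 and 65.3 times above *Cpt1b* in Wt mice and 21.1, 36.0 and 25.8 times above it in mutant mice. As listed, *Cpt1a* was the higher of both in all 6 mice.

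**Figure D1:**
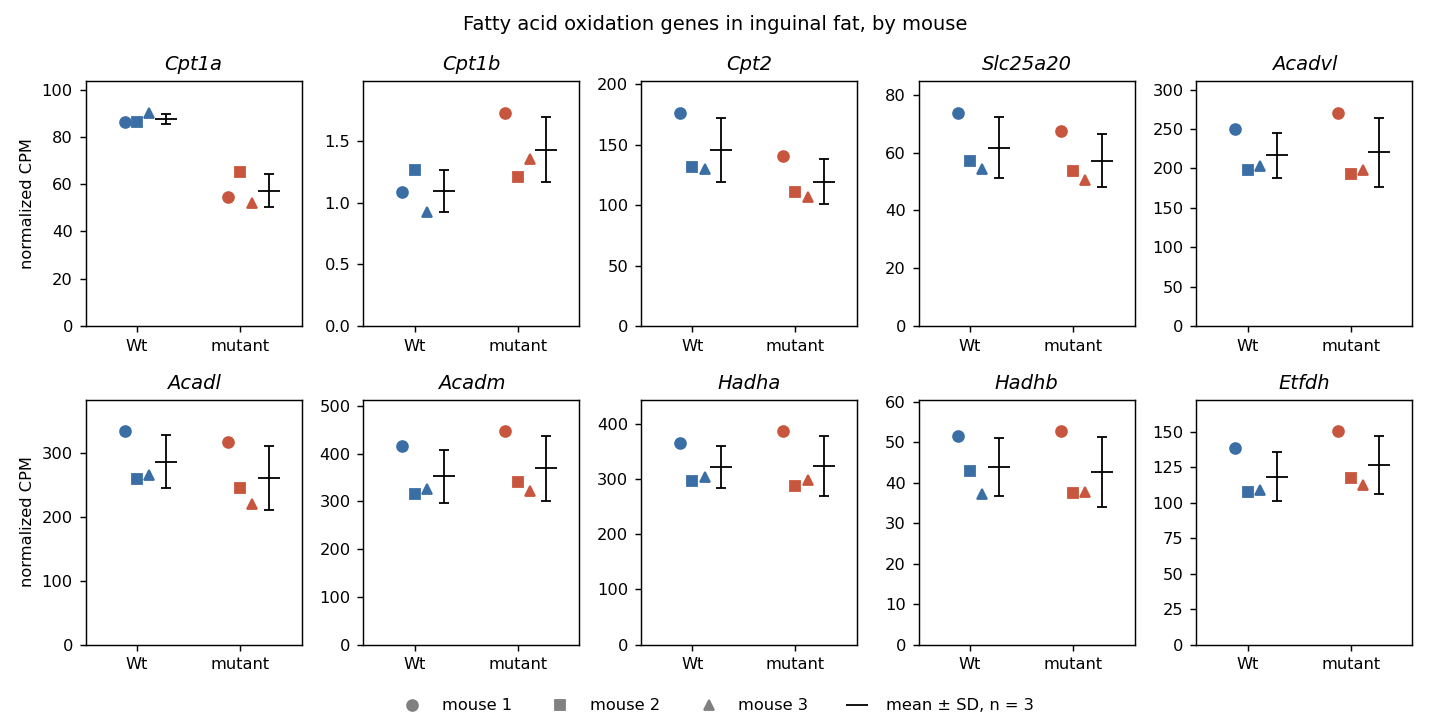
Normalized CPM (vertical axes, linear and starting at 0) of the 10 genes in each Wt and mutant mouse, with circles, squares and triangles for mice 1, 2 and 3 and bars for the mean ± SD (n = 3). The genotypes are apart for Cpt1a (52.2 to 65.1 in mutant, 86.3 to 90.1 in Wt mice) and overlap for the other 9 genes.

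The remaining shuttle genes are those of the inner membrane. *Cpt2* (chr4:107903981-107923610, minus strand) was at 176, 131 and 130 normalized CPM in the Wt mice and at 141, 111 and 107 in mutant mice. Mutant mouse 1 lay above Wt mice 2 and 3, so the groups overlapped. With means of 119 ± 18.7 against 146 ± 26.3 (SD, n = 3 each), the log2 difference was -0.28 (standard error 0.16, 95% interval -0.68 to 0.11, adjusted p = 0.339, limma). *Slc25a20* (chr9:108662088-108684641, plus strand), the carnitine-acylcarnitine carrier, was at 73.7, 56.9 and 54.4 in Wt and at 67.5, 53.7 and 50.4 in mutant mice. In both groups mouse 1 stood above the others, and the ranges overlapped. Its log2 difference was -0.11 (standard error 0.16, 95% interval -0.49 to 0.28, adjusted p = 0.702, limma). The log2 ratio of *Cpt1a* to *Cpt2* differed by -0.33 between genotypes (exact permutation p = 0.3).

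Of the acyl-CoA dehydrogenases, which carry out the first step of each round, none was called. *Acadvl*, the enzyme for the longest chains (chr11:70010183-70015411, minus strand), stood at 250, 198 and 203 normalized CPM in the Wt mice and at 270, 193 and 197 in mutant mice. The highest and the lowest value were both from mutant mice. Its log2 difference was 0.012 (standard error 0.16, 95% interval -0.38 to 0.41, adjusted p = 0.969, limma). A stretch of 863 bases of its transcript (39.8%) is overlapped by *Dvl2* on the other strand, whose mean of 30.5 normalized CPM was 0.139 of that of *Acadvl*, and the use of strand in counting is not given in the sources used here. *Acadl* (chr1:66830839-66863277, minus strand), for long chains, was at 335, 260 and 266 in Wt and at 319, 245 and 221 in mutant mice. Mutant mouse 1 lay above Wt mice 2 and 3, and the log2 difference of -0.14 (standard error 0.17, 95% interval -0.55 to 0.27) did not pass the threshold (adjusted p = 0.627, limma). *Acadm* (chr3:153922357-153944632, minus strand), for medium chains, was at 416, 316 and 326 in Wt and at 447, 340 and 321 in mutant mice. Again mouse 1 was the highest of each group, and the groups overlapped, with a log2 difference of 0.064 (standard error 0.17, 95% interval -0.35 to 0.47, adjusted p = 0.836, limma). The pseudogene *Gm5131* matches 681 bases (33.3%) of the *Acadm* transcript and was listed at 0 to 0.328 normalized CPM.

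The trifunctional protein completes each round for long chains, with the hydratase and dehydrogenase on the subunit from *Hadha* and the thiolase on that from *Hadhb*. *Hadha* (chr5:30118304-30155162, minus strand) was at 365.1, 297.1 and 303.7 normalized CPM in the Wt mice and at 386.7, 287.5 and 299.2 in mutant mice. *Hadhb* (chr5:30155248-30184593, plus strand) was at 51.4, 42.7 and 37.3 in Wt and at 52.6, 37.4 and 37.7 in mutant mice. Both genes were highest in mouse 1 of each group, and for both the genotypes overlapped. The log2 difference was 0.0047 for *Hadha* (standard error 0.15, 95% interval -0.35 to 0.36, adjusted p = 0.987, limma) and -0.048 for *Hadhb* (standard error 0.18, 95% interval -0.47 to 0.38, adjusted p = 0.882, limma). The genes lie head to head with 85 bases between their annotated ends, chr5:30155163-30155247, shown on the plus strand because both are read outward from it. None of the searched motifs is in this stretch, so no letters are in capitals.
Hadha-Hadhb: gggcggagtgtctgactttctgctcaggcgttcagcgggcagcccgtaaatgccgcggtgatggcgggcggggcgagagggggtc
The ratio of *Hadha* to *Hadhb* was 7.10, 6.95 and 8.15 in Wt mice and 7.35, 7.69 and 7.94 in mutant mice. These values lay close together although each gene varied between mice, and the log2 ratio differed by 0.053 between genotypes (exact permutation p = 0.5). Per kilobase the mean ratio was 3.84. The level of *Hadhb* is uncertain, since the pseudogenes *Gm13910* (1.61 to 2.62 normalized CPM) and *Gm9108* (0 to 0.0524) match 1428 bases (69.7%) of its transcript of 2048 bases.

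*Etfdh* (chr3:79603788-79629500, minus strand) encodes the oxidoreductase that passes electrons from the dehydrogenases to ubiquinone. It was at 139, 108 and 109 normalized CPM in the Wt mice and at 150, 118 and 113 in mutant mice. Mutant mice 2 and 3 lay between the Wt values, and the log2 difference was 0.096 (standard error 0.15, 95% interval -0.27 to 0.46, adjusted p = 0.716, limma).

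The members other than *Cpt1a* and *Cpt1b* shared a pattern over the mice. All 8 were highest in mouse 1 of both genotypes, as were 6 of the 7 white adipocyte markers (85.7%) and 5006 of the 16868 genes tested (29.7%). For these 8 genes Wt mouse 1 stood 1.22 to 1.35 times above the mean of Wt mice 2 and 3, and mutant mouse 1 stood 1.30 to 1.40 times above the mean of mutant mice 2 and 3. For *Cpt1a* these ratios were 0.980 and 0.929. The mean log2 level of the white adipocyte markers was 11.20, 10.81 and 10.68 in Wt and 11.03, 10.77 and 10.42 in mutant mice, so mouse 1 was highest there too (difference between genotypes -0.16, exact permutation p = 0.5). This level averages *Lep*, whose estimate was higher in mutant mice, with the 6 other markers, whose estimates were lower. With that level subtracted in each mouse, the standard deviation within genotypes fell from 0.20 to 0.26 on the log2 scale to 0.10 to 0.17 for the 8 genes, while that of *Cpt1a* went from 0.12 to 0.30. Relative to the mean of the 8 genes, *Cpt1a* stood at -1.07, -0.72 and -0.64 on the log2 scale in Wt mice and at -1.72, -1.07 and -1.34 in mutant mice. On this scale Wt mouse 1 and mutant mouse 2 were level, and the means differed by -0.57. The part of adipocyte content in these values was not tested.

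**Figure D2:**
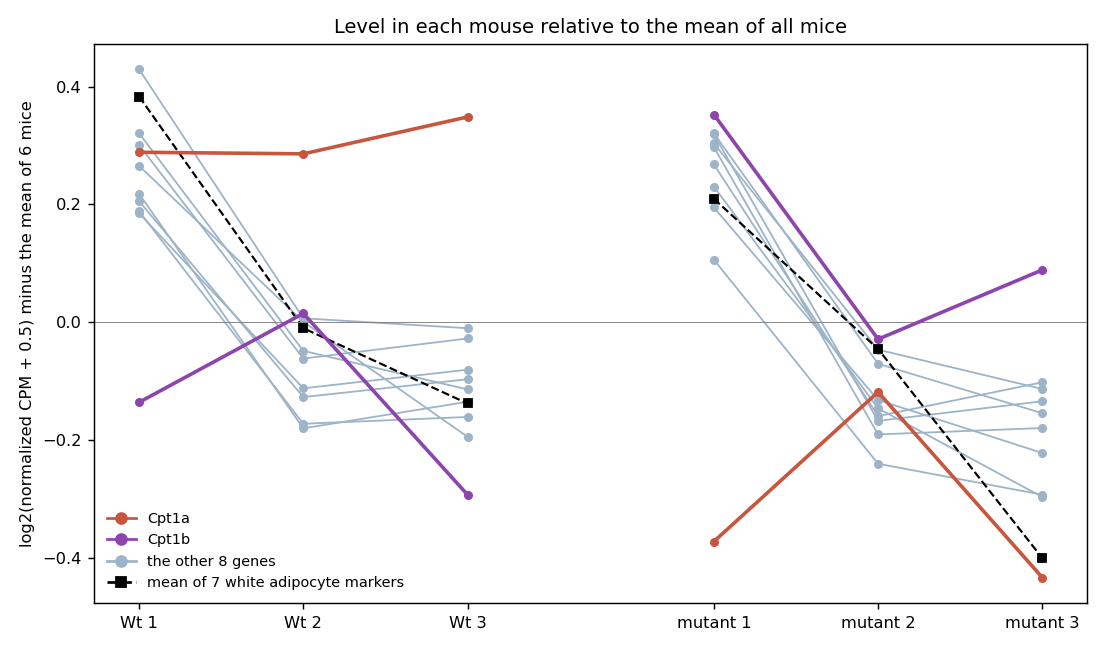
Level of each gene in each mouse, as log2(normalized CPM + 0.5) minus its mean over the 6 mice (vertical axis), for Cpt1a, Cpt1b, the other 8 genes and the mean of 7 white adipocyte markers (lines join the values of a gene and mark no order of the mice). The 8 genes and the markers are highest in mouse 1 of each genotype, whereas Cpt1a is above its mean in the 3 Wt mice and below it in the 3 mutant mice.

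Levels were compared between genes per kilobase of coding transcript, as means of the 6 mice. *Acadm* was the most abundant at 176 normalized CPM per kilobase, followed by *Acadl* at 143, *Acadvl* at 101 and *Hadha* at 80.5. *Cpt2* at 55.9 and *Etfdh* at 51.6 could not be ordered, as *Cpt2* was the higher in 3 of 6 mice. *Slc25a20* followed at 33.3, *Hadhb* at 21.1 and *Cpt1a* at 16.8, with *Hadhb* above *Cpt1a* in 5 of 6 mice. The step to *Cpt1b*, listed at 0.436, was 38.5-fold, but its level is uncertain because of the readthrough transcript. Ranges over the mice did not overlap between *Etfdh* and *Slc25a20*, between *Slc25a20* and *Hadhb* or between *Cpt1a* and *Cpt1b*. For the other neighbours the ranges overlapped, but from *Acadm* down to *Cpt2* the order held in 6 of 6 mice. With all annotated exons as the length, *Acadl* came before *Acadm*, *Cpt2* before *Hadha* and *Cpt1a* before *Hadhb*.

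Without the block, other genes of mitochondrial oxidation gave 0 calls among 14 with limma and with edgeR, and 1 call, *Acad10*, with DESeq2. Of the 14, 1 had an unadjusted p under 0.05 (limma). Their median log2 difference was -0.0029 beside -0.049 for all genes. *Acads*, the short-chain dehydrogenase, was at 93.4 normalized CPM in mutant and 121 in Wt mice (log2 difference -0.37, standard error 0.17, adjusted p = 0.236, limma), and differed by -0.11 with a correction for GC content (adjusted p = 0.695). *Hadh*, which acts on shorter hydroxyacyl chains, differed by -0.064 (adjusted p = 0.858), the thiolase *Acaa2* by 0.049 (0.864), and *Etfa* and *Etfb*, whose product hands electrons to that of *Etfdh*, by 0.090 (0.780) and -0.044 (0.905). All of these groups overlapped. None of the 4 other carnitine genes and none of the 3 genes of malonyl-CoA control was called by limma or edgeR without the block, with 1 unadjusted p under 0.05 in each list. Among the latter *Acacb*, which makes malonyl-CoA at the mitochondrion, differed by -0.23 (standard error 0.20, adjusted p = 0.504, limma) and by -0.099 with the GC correction. *Acaca*, which makes malonyl-CoA in the cytosol and is named here after its values were seen, was at 329 ± 57.3 (SD, n = 3) in mutant and 218 ± 42.4 (SD, n = 3) in Wt mice. Each mutant mouse lay above each Wt mouse, with a log2 difference of 0.60 (standard error 0.19, 95% interval 0.14 to 1.05, adjusted p = 0.116, limma). With the Wald test of DESeq2 on the reads it passed (adjusted p = 0.0206).

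Of 11 regulators of these genes, 1 was called lower and 10 were not called by limma without the block, where 8.11% of all genes were called. *Ppargc1b*, a coactivator of oxidative metabolism, was at 7.18 ± 0.846 (SD, n = 3) in mutant and 12.1 ± 0.740 (SD, n = 3) in Wt mice, with each mutant mouse below each Wt mouse. Its log2 difference was -0.72 (standard error 0.13, 95% interval -1.03 to -0.41, adjusted p = 0.0223, limma). The call was lost with adipocyte centring (-0.56, adjusted p = 0.441), with a correction for GC content (-0.49, adjusted p = 0.0997) and without any mouse other than mutant mouse 1 (adjusted p up to 0.0905, limma). *Ppargc1a*, the related coactivator of brown fat, differed by 0.066 (adjusted p = 0.863, limma). *Ppara*, the receptor that drives oxidation genes in liver, was at 6.57 against 9.63 normalized CPM, with overlapping groups (log2 difference -0.51, standard error 0.21, adjusted p = 0.198, limma). *Esrra*, a receptor of mitochondrial genes, was lower in each mutant than in each Wt mouse but not past the threshold (-0.27, standard error 0.10, adjusted p = 0.178, limma), and its difference was -0.0098 with the GC correction (adjusted p = 0.959). Over all 52 other genes of the pathway and its control, 1 was called by limma without the block, beside 8.11% of all genes tested. All mutant mice lay below the Wt mice for 7 (15.7% of all genes) and above for 5 (14.9%). The median log2 difference was -0.054, beside -0.049 for all genes.

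**Figure D3:**
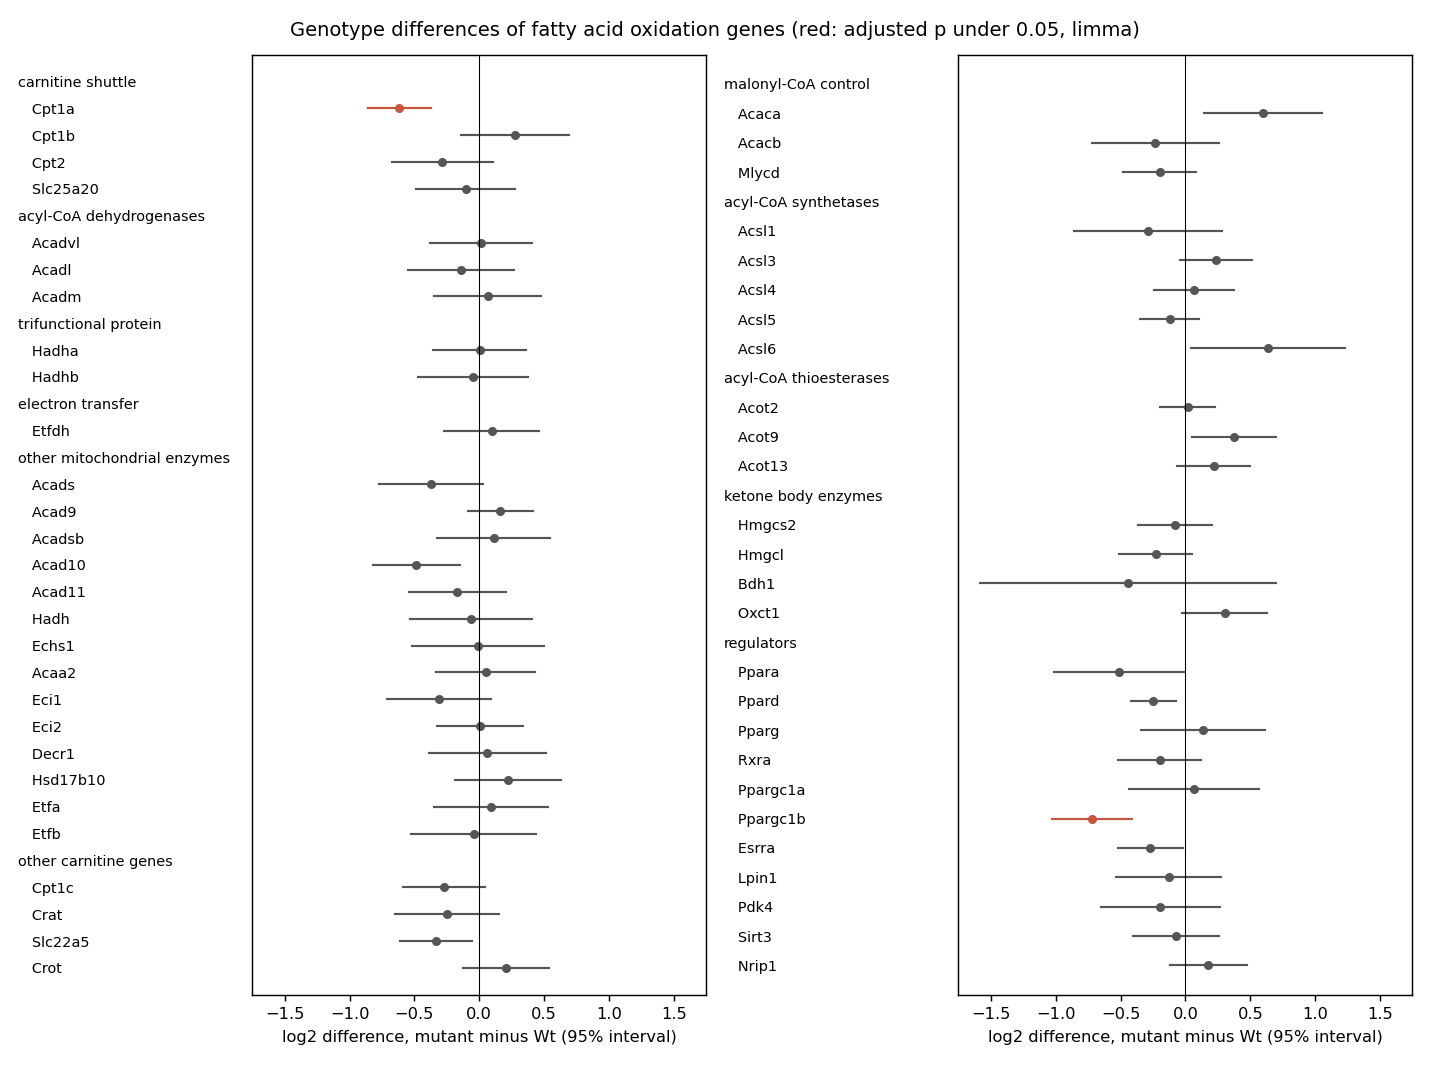
Log2 difference, mutant minus Wt (horizontal axis), of the 10 members and 44 of the other genes of the pathway, grouped by role, with points for the estimate and bars for its 95% interval (limma, n = 3 per genotype). Cpt1a (-0.62) and Ppargc1b (-0.72), in red, are the genes past the FDR of 0.05.

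The genes most like *Cpt1a* over the 6 mice, by the root mean square difference of centred log2 values, were *Gdf15* (0.037), *Amdhd2* (0.038), *5830454E08Rik* (0.045), *Gfod2* (0.051) and *0610043K17Rik* (0.057). Of these, *Gdf15* (mean 0.336 normalized CPM), *5830454E08Rik* (0.855) and *0610043K17Rik* (1.01) were near the pseudocount of 0.5, which damps their differences. Those most like *Cpt1b* were *Myl12a* (0.031), *Chchd1* (0.042), *Hykk* (0.046), *Rdx* (0.048) and *Orc4* (0.052). *Cpt1b* itself, with a mean of 1.26 normalized CPM, is damped too. Its log2 difference was 0.28, and 0.36 with a pseudocount of 0.1 (limma). No member was among the 5 genes most like either.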

How the data were processed

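Total RNA of iWAT (RNeasy Plus kit) was sequenced with 1 library per mouse, and the labels gave each library's genotype and mouse number. The authors deposited CPM values carrying a further factor for each mouse, a normalized signal for every gene. The submitters' processing notes name mm10, Bowtie2 2.1.0, RSEM 1.2.15 and edgeR without roles, and strand use, annotation and the handling of multiply mapping reads are not given in the sources used here. All deposited values above 0 (100%, tolerance 0.01 reads) came out as whole reads when divided by the step of the mouse, and these reads were used where counts were needed. Floors in reads cover counting error only. Of the gene IDs, 55480 (99.8%) were in GENCODE M21 (GRCm38), used for coordinates and lengths. In 27 rows the symbol had become a date, none of them a member. Mice of a genotype differed by more than sampling noise allows (19.3 to 63.8 as chi-square per degree of freedom), so each counted as 1 sample. That mice were separate animals is given, but not whether they were littermates.

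Genotypes were compared with limma 3.58.1 (R 4.3.3) on log2(value + 0.5), with its trend of variance on mean, for the 16868 genes kept by filterByExpr of edgeR 4.0.16, with Benjamini-Hochberg adjustment and an FDR of 0.05. All 10 members passed the filter. On this scale differences of low genes are understated. The fit was tested on simulated data. Single values and ratios were compared by exact permutation. Lists of markers and pathway genes, and the members, were chosen with earlier results of these data known. Named were the members, every pathway gene past the FDR, *Hadh*, *Acads*, *Acaa2*, *Etfa*, *Etfb*, *Acacb*, *Ppara*, *Ppargc1a*, *Esrra*, *Thra* and the 5 genes most like *Cpt1a* and *Cpt1b*. Results of some other pathway genes are not reported here. Matches between transcripts of at least 50 bases at 90% identity were found with blastn 2.17.0. Alternatives were other scalings (DESeq2 1.42.0 size factors, library size only, centring on adipocyte markers), other tests on the recovered reads (edgeR's quasi-likelihood test, DESeq2's Wald test), other filters, pseudocounts of 0.1 and 1, a replicate block, and omission of single mice. A GC correction in 20 bins, omission of genes opposite an abundant gene, and edgeR with the block were added after the data were examined. Python 3.11.15, pandas 2.3.3, SciPy 1.17.1 and Matplotlib 3.10.9 were used otherwise.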

Additional observations from a re-analysis of the deposited data

How the results depend on the processing

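The main test called 1368 genes (928 higher, 440 lower in mutant mice) and 1 member. Centring on adipocyte markers moved the median of all genes from -0.049 to 0.11 and called 673 genes (649 higher, 24 lower) and 0 members. DESeq2's Wald test called 2118 genes, a filter of 10 reads in every mouse 598 of 14638, and omission of genes opposite an abundant gene 344 of 15676. In each, *Cpt1a* was the member called. Scaling by library size alone split the calls into 1019 higher and 265 lower, and the GC correction into 858 and 124. Leaving out 1 mouse gave 554 to 1005 genes and 0 to 1 members. Deviations from the genotype means correlated at 0.69, 0.06 and 0.56 between mice of the same number. The sources used here do not say what the number marks, so the main test did not pair the mice and the block is given as an alternative. With a replicate block by mouse number, 4063 genes (1733 higher, 2330 lower) and 2 members were called, *Cpt1a* (adjusted p = 0.0130, limma) and *Cpt2* (0.0184). With the block, the GC correction gave 3110 genes and 2 members and edgeR's quasi-likelihood test 3120 genes and 2 members, again *Cpt1a* and *Cpt2*. In the block fit 18 of the 52 other pathway genes were called, 6 higher and 12 lower, where 24.1% of all genes were called. They included 5 of 11 regulators, all lower, among them *Ppara* (adjusted p = 0.0277, limma) and *Esrra* (0.0454), 4 of the 14 other mitochondrial genes, among them *Acads* (0.0112), 3 of the 4 other carnitine genes and *Acaca* (0.00632). The GC correction with the block kept *Ppara* (0.0346) and not *Esrra* (0.921) or *Acads* (0.175), and also called *Thra*, with a log2 difference of 0.42. The difference in the log2 ratio of *Cpt1b* to *Cpt1a* had a paired exact p of 0.25, the smallest that 3 pairs allow.

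Small differences changed sign. Centring on adipocyte markers turned *Slc25a20* to 0.051, *Acadl* to 0.016, *Hadhb* to 0.11, *Hadh* to 0.093 and *Etfb* to 0.11, and the GC correction turned *Etfb* to 0.14 with and without the block. With 1 mouse left out, the log2 difference ranged from -0.23 to 0.028 for *Slc25a20*, -0.14 to 0.12 for *Acadvl*, -0.080 to 0.19 for *Acadm*, -0.13 to 0.099 for *Hadha*, -0.21 to 0.073 for *Hadhb*, -0.032 to 0.21 for *Etfdh*, -0.23 to 0.090 for *Hadh*, -0.079 to 0.17 for *Acaa2*, -0.072 to 0.23 for *Etfa*, -0.19 to 0.11 for *Etfb* and -0.13 to 0.22 for *Ppargc1a*. These shifts lay within the intervals of the differences, and none of these genes was called. Of 322 values of 23 named genes under the alternatives that kept all mice, 297 kept direction and side of the threshold. The cause of the lost and gained calls was not tested. Of the members *Cpt1b* had the fewest reads, at 22 to 33 per mouse. How reads shared with its readthrough transcript were assigned is not given.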

Other observations

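Fatty acids reach the mitochondrion from other steps, whose genes were measured in the same mice. Of 5 acyl-CoA synthetases, which activate fatty acids, none was called by limma, edgeR or DESeq2 and 1 had an unadjusted p under 0.05. *Acsl1*, the main synthetase of fat, stood at 1691 normalized CPM in mutant and 2064 in Wt mice (log2 difference -0.29, adjusted p = 0.482, limma). *Acsl6* (5.16 against 3.14) and *Acsl3* (22.9 against 19.4) were higher in each mutant than in each Wt mouse without passing the threshold (adjusted p = 0.181 and 0.273, limma). Of 3 mitochondrial thioesterases, which release fatty acids from CoA, *Acot9* (46.9 against 35.9) and *Acot13* (24.8 against 21.2) were also higher in each mutant mouse, with adjusted p-values of 0.153 and 0.309 (limma). With the block these p-values were 0.0440 and 0.0997 (limma). Across all genes tested, 14.9% had every mutant mouse above and 15.7% every mutant mouse below the Wt mice. These genes, and those below, were named after their values were seen.

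Ketone body enzymes (4 genes) held no call by limma, edgeR or DESeq2 without the block and 0 unadjusted p-values under 0.05, with a median log2 difference of -0.15. *Oxct1*, which lets tissues use ketone bodies, was at 299.7 against 243 (log2 difference 0.30, adjusted p = 0.235, limma). With the block it was called (adjusted p = 0.0178, limma), where 24.1% of all genes were called. Lower in each mutant than in each Wt mouse were *Acad10* (11.4 against 16.1 normalized CPM, adjusted p = 0.0941, limma), *Slc22a5*, the carnitine transporter of the plasma membrane (18.2 against 23.0, adjusted p = 0.142), and *Cpt1c*, the isoform of brain (7.32 ± 0.589 against 8.96 ± 0.898, SD, n = 3 each, adjusted p = 0.265, limma, log2 difference -0.27 and -0.092 with the GC correction). With the block, *Acad10* (adjusted p = 0.0300, limma) and *Slc22a5* (0.0327) passed and *Cpt1c* (0.175) did not.

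The ratio of *Etfa* to *Etfb*, whose products form 1 flavoprotein, was 17.2 to 21.7 over the 6 mice and 12.8 per kilobase on average. It did not differ detectably between genotypes (log2 difference 0.13, exact permutation p = 0.4). Matches to other transcripts were searched for the members only, so the levels of *Etfa* and *Etfb* were not checked in this way.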
